A study of Mus musculus with 6 samples.

Results

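The genes described here belong to the liver X receptor (LXR) pathway and to cellular sterol export, and were followed through a dose experiment in B16F10, a mouse melanoma line that makes melanin. They come from a list of 10 symbols (Abca1, Abcg1, Lpcat3, Mylip, Nr1h2, Nr1h3, Srebf1, Npc1, Npc2 and Soat1) that was looked up in the array annotation. It names 7 of the 10, among 19505 genes in all, and Nr1h2, Srebf1 and Soat1 were not analysed here. The cells had been cultured for 48 h in medium alone (control), in medium with 2.5 µM of a compound (SQ-diEG in the title, di-sq in the sample labels), or in medium with 40 µM of it. RNA of each group was hybridised to 2 single-colour Affymetrix arrays, and levels are given on the deposited log2 scale. Whether replicate arrays represent separate cultures is not stated, so every p-value measures the spread between these arrays, which may be technical. RNA was taken from whole cultures, so more cells with a message and more of it per cell cannot be told apart. The labels name no vehicle, so the control is medium without one as far as they say.

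LXR alpha (encoded by Nr1h3) and LXR beta (Nr1h2) are nuclear receptors that bind oxysterols and desmosterol, pair with retinoid X receptors, and switch on genes that move cholesterol out of the cell. Their classic targets are the transporters Abca1 and Abcg1, the phospholipid acyltransferase Lpcat3, the ubiquitin ligase Mylip, which lowers the uptake of lipoprotein cholesterol, and Srebf1, whose product drives fatty acid synthesis. Npc1 and Npc2 act before this step, since they hand cholesterol from lysosomes to the rest of the cell, and Soat1 esterifies the surplus for storage.

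The promoter sequences of the genes whose levels stood farthest from control are shown first, because LXR reaches its targets through a paired DNA site. Each is the stretch of 250 bases before a start listed in the RefSeq promoter table (GRCm38.p6), read 5′ to 3′ on the strand of the gene. The listed start need not be the outer limit of the gene: it is that limit for Mylip, but lies 93 bases inside the annotated gene for Abca1 and 10 bases inside for Lpcat3. Capitals mark the only match, on either strand, to GGTTACT and CGGTCA with 2 free bases between them. These letters were read from the Abca1 and Srebf1 windows themselves, so a match there is fixed by the choice. The window of Abca1 is chr4:53159896-53160145 on the minus strand, that of Lpcat3 chr6:124662854-124663103 on the plus strand, and that of Mylip chr13:45389492-45389741 on the plus strand.
Abca1: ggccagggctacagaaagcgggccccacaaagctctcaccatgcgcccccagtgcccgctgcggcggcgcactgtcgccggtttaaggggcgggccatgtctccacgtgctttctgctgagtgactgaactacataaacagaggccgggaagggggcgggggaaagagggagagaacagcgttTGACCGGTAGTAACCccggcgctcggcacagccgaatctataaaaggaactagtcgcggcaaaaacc
Lpcat3: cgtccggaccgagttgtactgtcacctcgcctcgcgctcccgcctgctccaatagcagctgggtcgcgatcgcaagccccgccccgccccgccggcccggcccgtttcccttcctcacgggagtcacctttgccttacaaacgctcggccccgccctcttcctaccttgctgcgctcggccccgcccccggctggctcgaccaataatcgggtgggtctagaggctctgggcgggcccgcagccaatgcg
Mylip: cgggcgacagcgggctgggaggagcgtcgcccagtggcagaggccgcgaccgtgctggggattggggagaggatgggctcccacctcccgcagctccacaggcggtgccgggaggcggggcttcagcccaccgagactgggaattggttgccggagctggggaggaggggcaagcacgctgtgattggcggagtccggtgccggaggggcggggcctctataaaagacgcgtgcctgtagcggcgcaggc

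The Abca1 match lies 53 to 67 bases before the start its window is built on, on the strand opposite to the gene, and so inside the annotated gene. Over all 32851 windows of this kind, 3 (0.00913%) held these letters, and they belong to Abca1, Srebf1 and Fasn, the fatty acid synthase gene that LXR is also known to activate. Turned to the orientation of the letters searched, with the free bases in lower case, the matches read as follows. The Srebf1 match lies 168 to 182 bases before the start of its window, the third of 3 listed for this gene, which is 13715 bases inside the annotated gene. The Fasn match lies 211 to 225 bases before its listed start, which is 619 bases inside the gene.
Abca1: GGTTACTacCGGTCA
Srebf1: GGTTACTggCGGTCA
Fasn: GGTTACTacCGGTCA
The looser textbook form of the site, AGGTCA repeated after 4 free bases and with up to 3 letters different, matched at the same places in these 3 windows, where it overlaps the match above, and in 18.5% of all windows. No other window of the 8 listed genes that were searched held it. Abcg1 and Npc1 were not among these 8. Abca1 also had CACGTG, an E-box, 142 to 147 bases before the same start, apart from the match above, as 6.02% of all windows did. The matches describe letters in these windows and were not tested for binding.

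The cells carried the melanocyte identity that the label gives them. All 7 melanoma markers (Mitf, Sox10, Tyr, Tyrp1, Dct, Pmel and Mlana) lay above the 95th percentile of 5222 negative control features on every array. None of the 5 measured macrophage markers did on any array, nor any of 4 fibroblast, 4 keratinocyte and 3 endothelial markers. This percentile, 9.80 to 10.06 on the log2 scale, serves below as the background level, and the median of the negative controls was 5.98 to 6.10. The first replicates of both doses differed from the other 4 arrays in spiked-in control signal, with hybridisation controls of 10.3 to 10.4 against 10.8 to 11.2 and poly-A controls of 5.63 to 5.65 against 6.35 to 7.42. They are called the low arrays, and values are given without them where it matters. Gene levels also spread more widely on them, with an interquartile range of 5.20 at 2.5 µM and 5.43 at 40 µM against 4.90 to 4.94. More genes lay above the background level of the array on them, 4362 and 4566 against 3939 to 4013.

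At 40 µM, 3 of the 7 genes were higher than in control at an unadjusted p under 0.05 (limma, two-sided), while 5.18% of all genes were higher by this measure. These were Abca1, Lpcat3 and Mylip. None of the 7 was lower by it, as 6.86% of all genes were. Over all 19505 genes none passed after Benjamini-Hochberg adjustment (limma; 2349 genes, 12%, had an unadjusted p under 0.05), so no change at this dose passed the test. None passed at 2.5 µM or between the doses either (limma; 1877 and 1095 genes had an unadjusted p under 0.05). At 2.5 µM, 1 of the 7, Lpcat3, was higher at an unadjusted p under 0.05 (limma; 4.24% of all genes were higher), and none was lower (5.38% of all genes). The median of the 7 log2 changes was 0.40 at 40 µM and 0.11 at 2.5 µM, where over all genes it was -0.01 and 0.01.

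**Figure D1:**
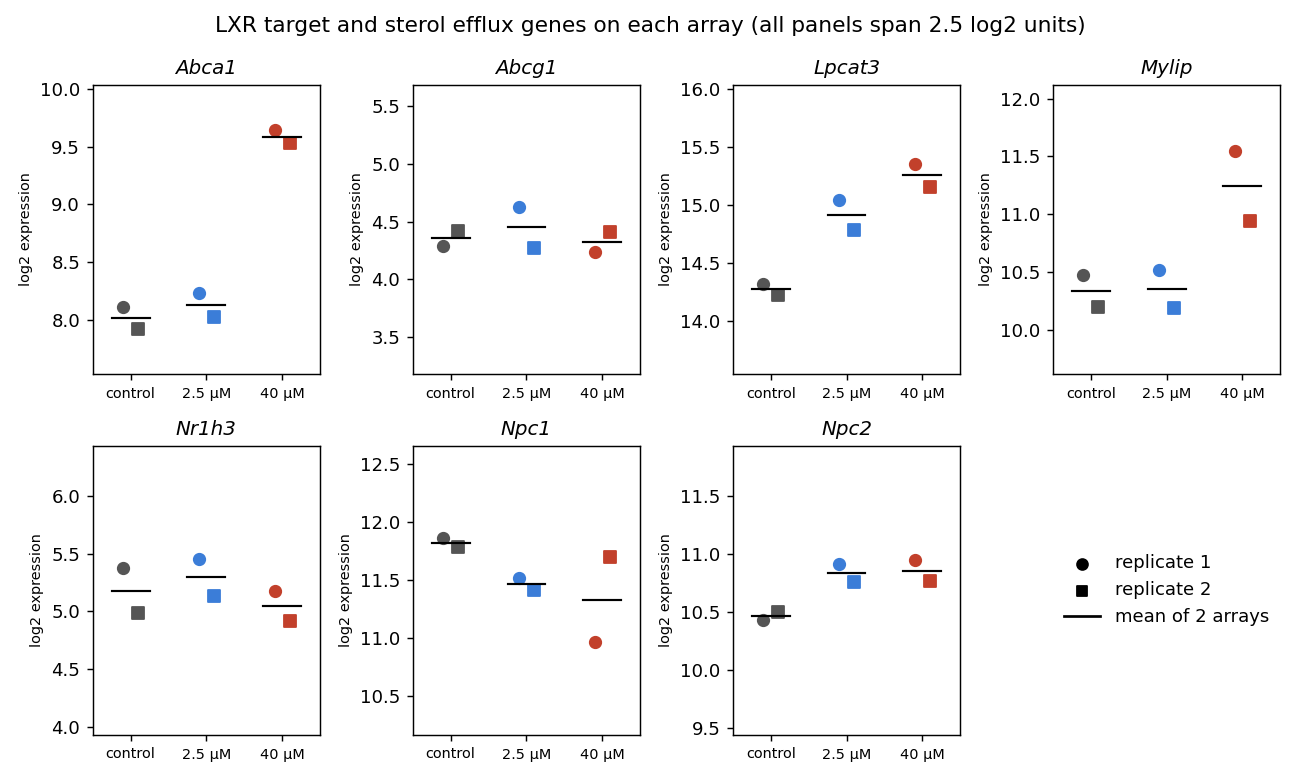
Log2 expression (vertical axis, each panel spanning 2.5 units) of the 7 genes in control, 2.5 µM and 40 µM. Circles are replicate 1, squares replicate 2 and bars the mean of both. Abca1 and Mylip lie above the other groups at 40 µM, Lpcat3 and Npc2 lie above control at both doses, and Abcg1 and Nr1h3 overlap between groups.

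The receptor gene Nr1h3 was not above background on any array. Its log2 level was 5.38 and 4.98 on control replicates 1 and 2, 5.45 and 5.13 at 2.5 µM, and 5.18 and 4.91 at 40 µM. The 3 groups overlapped, and all 6 values lay below the median of the negative controls. The log2 change was -0.14 at 40 µM (95% confidence interval from -0.73 to 0.46, limma adjusted p = 0.836) and 0.11 at 2.5 µM (from -0.48 to 0.71, limma adjusted p = 0.905). At such a level the arrays cannot show whether the cells changed the message for LXR alpha.

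Abca1, the transporter that loads cholesterol and phospholipid onto lipid-poor apolipoproteins, was not above the background level on any array, so its values set no fold change. Its log2 level was 8.11 and 7.93 on the controls, 8.24 and 8.03 at 2.5 µM, and 9.64 and 9.53 at 40 µM. Both 40 µM arrays stood more than 1 log2 unit above the other 4, which overlapped. The mean was 9.58 ± 0.08 with 40 µM compound against 8.02 ± 0.13 without it (SD, n = 2), a difference of 1.57 between the deposited log2 values (limma standard error 0.21, unadjusted p = 1.2e-04, adjusted p = 0.334). The change at 2.5 µM was 0.12, with a 95% confidence interval from -0.37 to 0.60 (limma adjusted p = 0.876). Between the doses, 40 µM was higher by 1.45 (from 0.96 to 1.94; limma unadjusted p = 1.96e-04, adjusted p = 0.854). All 6 Abca1 values lay above the median of the negative controls, at levels that some negative controls also reach. Without 40 µM replicate 2 the difference from control was 1.62 (limma adjusted p = 0.0197, as 2235 genes then passed), and without replicate 1 it was 1.51 and did not pass (limma adjusted p = 0.263). Each of these fits, here and below, has 1 array at 40 µM, so its spread is borrowed from control and 2.5 µM. With the pair of low arrays left out it was 1.51 (limma adjusted p = 9.63e-04, as 3749 genes passed), with 1 array at each dose and an error taken from the control arrays alone.

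Abcg1, which passes cholesterol to mature high-density lipoprotein particles and is a partner of Abca1 in macrophages, did not show this. Its log2 level was 4.29 and 4.42 on the controls, 4.63 and 4.27 at 2.5 µM, and 4.23 and 4.41 at 40 µM. All values overlapped and lay below the median of the negative controls, so they bound the level from above only. The log2 change at 40 µM was -0.03 (95% confidence interval from -0.56 to 0.50, limma adjusted p = 0.960), and its sign turned to 0.0034 when each array was centred on its median and to 0.096 after quantile normalization.

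Lpcat3 puts polyunsaturated fatty acids into membrane phospholipids, and it lay more than 4 log2 units above the background level on every array. The log2 values were 14.32 and 14.22 on the controls, 15.04 and 14.78 at 2.5 µM, and 15.35 and 15.16 at 40 µM. The 3 groups did not overlap and stood in the order of the dose. The level was 1.98-fold that of control at 40 µM (log2 change 0.99, limma standard error 0.18, unadjusted p = 7.93e-04, adjusted p = 0.334). At 2.5 µM it was 1.56-fold (log2 change 0.64, limma unadjusted p = 0.0082, adjusted p = 0.479). The difference between the doses was 0.34, with a 95% confidence interval from -0.07 to 0.76 (limma unadjusted p = 0.0918, adjusted p = 0.854), and with the low arrays as a block its unadjusted p was 0.0188 (limma adjusted p = 0.306). With 1 array left at 40 µM the change was 1.08 without replicate 2 (limma adjusted p = 0.0201) and 0.89 without replicate 1 (limma adjusted p = 0.263). Without both low arrays, with the error again from the controls alone, it was 0.89 at 40 µM and 0.51 at 2.5 µM (limma adjusted p = 6.36e-04 and 0.00328).

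Mylip, also called IDOL, followed Abca1 in dose but with a wider spread. It measured 10.47 and 10.20 on the controls, 10.52 and 10.19 at 2.5 µM, and 11.55 and 10.94 at 40 µM. Both 40 µM arrays lay above the other 4, and the 2.5 µM arrays overlapped with control. The log2 change was 0.91 at 40 µM (1.88-fold, limma standard error 0.27, unadjusted p = 0.0109, adjusted p = 0.349) and 0.01 at 2.5 µM (95% confidence interval from -0.61 to 0.64, limma adjusted p = 0.990). The 2.5 µM value turned negative after quantile normalization (-0.070) and with the low arrays as a block (-0.22). The low array at 40 µM held the higher value: without it the 40 µM change was 0.60. Without 40 µM replicate 2 it was 1.21, again with 1 array at this dose.

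The pair of lysosomal sterol carriers differed from each other. Npc2, the soluble protein of the lysosome lumen that binds cholesterol, lay at 10.43 and 10.50 on the controls, 10.91 and 10.76 at 2.5 µM, and 10.94 and 10.77 at 40 µM. All 4 treated arrays were above both controls, and the doses overlapped. The log2 change was 0.40 at 40 µM (95% confidence interval from -0.05 to 0.84, limma adjusted p = 0.440) and 0.38 at 2.5 µM (from -0.07 to 0.82, limma adjusted p = 0.561). The doses differed by 0.02, with an interval from -0.43 to 0.46. Npc1, the membrane protein that takes cholesterol over from Npc2, lay at 11.86 and 11.79 on the controls, 11.52 and 11.42 at 2.5 µM, and 10.96 and 11.70 at 40 µM. All 4 treated arrays were below both controls, but the 40 µM arrays were 0.74 apart. The log2 change was -0.49 at 40 µM (from -1.11 to 0.13, limma adjusted p = 0.468) and -0.36 at 2.5 µM (from -0.97 to 0.26, limma adjusted p = 0.683). Most of the 40 µM value came from 1 low array: with 1 array left at 40 µM it was -0.13 without replicate 1 (limma adjusted p = 0.761) and -0.86 without replicate 2 (limma adjusted p = 0.0282). Without both low arrays, which leaves 1 array at each dose, the 2.5 µM change was -0.41.

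**Figure D2:**
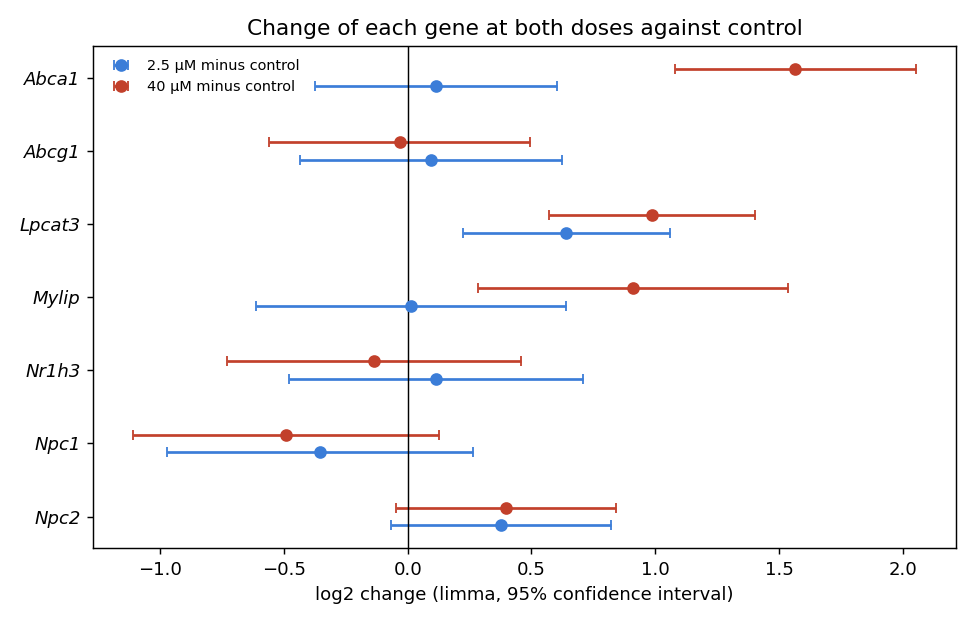
Log2 change from control (horizontal axis) of the 7 genes at 2.5 µM (blue) and 40 µM (red), with 95% confidence intervals from limma. The intervals of Abca1, Lpcat3 and Mylip at 40 µM and of Lpcat3 at 2.5 µM lie above 0, and all others span 0.

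Taken by groups that do not overlap, 4 of the 7 genes had both 40 µM arrays above both controls (22.2% of all genes) and 1 had both below (26.3%). At 2.5 µM, 2 were above (27.1% of all genes) and 1 below (25.9%). With 2 arrays a group an exact permutation test cannot go below p = 0.333. Between the doses, 3 genes (Abca1, Lpcat3 and Mylip) were higher at 40 µM on both arrays, as 12.4% of all genes were, and none was lower on both (16.3%). At an unadjusted p under 0.05, 2 of them were higher (limma; 2.34% of all genes), Abca1 and Mylip, and none was lower (3.28%). With the low arrays as a block, the count between the doses was 3 instead of 2. In each comparison the count also varied with the arrays left out, and each such fit has 1 array in a group. The share of all genes at an unadjusted p under 0.05 was not computed for these fits. Without both low arrays, which leaves 1 array at each dose, the dose differences of Abca1, Lpcat3 and Mylip were 1.50, 0.38 and 0.76.

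Since each low array has a counterpart at the other dose, the doses were also compared within arrays of the same replicate number. On the low arrays Abca1 was higher at 40 µM by 1.40, and on the other treated arrays by 1.50. The corresponding values were 1.03 and 0.76 for Mylip, and 0.31 and 0.38 for Lpcat3. These 3 genes were higher at 40 µM within both pairs. That direction was fixed beforehand, since both of their 40 µM arrays lay above both 2.5 µM arrays, so only the sizes add to it. The labels do not pair the arrays. For Npc2 the values were 0.03 and 0.01. Npc1 changed sign, with -0.56 on the low arrays and 0.28 on the others.

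**Figure D3:**
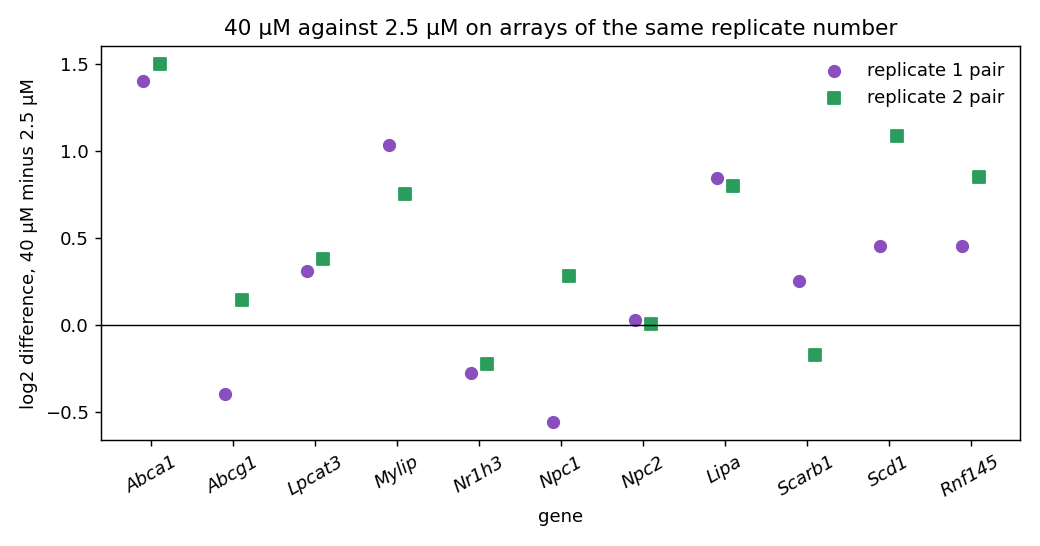
Log2 difference between 40 µM and 2.5 µM (vertical axis) on arrays of the same replicate number. Circles are the low arrays (replicate 1) and squares the other treated arrays (replicate 2). Abca1, Lpcat3, Mylip, Lipa, Scd1 and Rnf145 are above 0 in both pairs, while Abcg1, Npc1 and Scarb1 change sign.

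A further 69 measured genes around the pathway (of 81 on 8 lists of partners, other targets, sterol supply, SREBP activation, lysosomal transport, storage, other efflux and related acyltransferases) served as context. At 40 µM against control, 5 were higher and 3 lower at an unadjusted p under 0.05, which is 11.6% beside 12% of all genes (limma; no adjusted p under 0.334). At 2.5 µM it was 3 higher and 5 lower, again 11.6%, beside 9.62%, and between the doses 3 higher and 1 lower, 5.80% beside 5.61%. Their median log2 change was 0.16 at 40 µM and 0.11 at 2.5 µM. As a whole they thus held about the share found among all genes, and 23 of the 69 had a mean above the background level.

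Lipa, the lysosomal acid lipase that frees cholesterol from its esters, had the smallest p of the 69 at 40 µM. The log2 values were 10.87 and 10.62 on the controls, 10.86 and 10.80 at 2.5 µM, and 11.70 and 11.60 at 40 µM. Like Abca1 and Mylip, it was higher on both 40 µM arrays, and the other 4 overlapped. The log2 change was 0.90 at 40 µM (limma standard error 0.19, unadjusted p = 0.00196, adjusted p = 0.334) and 0.08 at 2.5 µM (limma adjusted p = 0.910). The difference between the doses was 0.82 (limma unadjusted p = 0.00326, adjusted p = 0.854). With 1 array left at 40 µM the change was 0.96 without replicate 2 (limma adjusted p = 0.0292) and 0.85 without replicate 1 (limma adjusted p = 0.263). Leaving out both low arrays, so that each dose had 1 array, gave 0.85 as well.

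Scarb1 is the receptor that exchanges cholesterol with high-density lipoprotein. On the log2 scale it lay at 9.69 and 9.81 on the controls, 10.35 and 10.41 at 2.5 µM, and 10.60 and 10.24 at 40 µM, so it stood above the background level on the treated arrays alone. The control level is thus only a bound. The measured mean stood 1.38-fold above the background level of the control arrays at 40 µM and 1.34-fold above it at 2.5 µM. These folds do not allow for the spread between treated arrays. The test on the measured values did not pass (limma unadjusted p = 0.0137 and 0.0183, adjusted p = 0.349 and 0.479). Lpcat2, an acyltransferase related to Lpcat3 in function, was higher by 0.62 at 40 µM (limma adjusted p = 0.408), with 13.43 on the low array and 12.72 on the other, against 12.46 and 12.45 in control. The other 5 acyltransferases of this list did not reach an unadjusted p under 0.05 (limma).

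Among the other LXR targets, Scd1, the stearoyl-CoA desaturase, lay at 13.80 and 13.74 on the controls, 13.51 and 13.53 at 2.5 µM, and 13.97 and 14.61 at 40 µM. It was below control at the lower dose and above it at the higher, with a difference of 0.77 between doses (limma unadjusted p = 0.0128, adjusted p = 0.854) and a change of 0.52 at 40 µM against control (limma adjusted p = 0.430). That change was 0.68 with the low arrays as a block (limma adjusted p = 0.215), and without both low arrays it was 0.84 (limma adjusted p = 8.32e-04), with the error from the controls alone. Rnf145, a sterol-responsive ubiquitin ligase, took the same course, at 10.96 and 11.21, then 10.90 and 10.90, then 11.35 and 11.75, higher by 0.65 at 40 µM than at 2.5 µM (limma unadjusted p = 0.0179, adjusted p = 0.854). Both were thus higher on both 40 µM arrays than on any other array. Apoe, an apolipoprotein that accepts cholesterol, lay at 15.29 and 15.29, then 15.66 and 15.16, then 15.95 and 15.23. Its higher values were those of the low arrays, and its 40 µM change of 0.30 (limma adjusted p = 0.654) was -0.057 without them and -0.0023 with them as a block. Fasn, named here for its promoter letters and after its values were seen, had a 40 µM change of 0.16 (95% confidence interval from -0.41 to 0.74, limma adjusted p = 0.792), with 10.68 and 10.55 in control and 10.48 and 11.08 at 40 µM. Its 40 µM change was -0.14 with 40 µM replicate 2 left out and 0.46 without both low arrays, each with 1 array at this dose. Its sign thus depends on which 40 µM array is used.

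Rxra, the retinoid X receptor that pairs with LXR, had a 40 µM change of -0.38 (limma adjusted p = 0.575), with 10.58 on the low array and 11.24 on the other against 11.14 and 11.44 in control. Srebf2, which drives cholesterol synthesis and uptake, had -0.25 (limma adjusted p = 0.608), with 14.35 on the low array and 14.81 on the other against 14.83 on both controls. Insig1, which holds the SREBP proteins back when sterols are plentiful, had 0.23 (limma adjusted p = 0.799), with 11.93 on the low array and 10.83 on the other. In each of these the 40 µM arrays lay farther apart than the controls, and the value without the low arrays was nearer 0 for Rxra and Srebf2 and of opposite sign for Insig1 (-0.32). The part of the low arrays' control signal in these values was not tested.

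The remaining pathway genes with an unadjusted p under 0.05 had means below 9.94, the mean background level, in each group. At 40 µM against control these were Abcg4, Cav1 and Gramd1b, lower by log2 changes of -0.81, -0.55 and -0.54, and Apoc1 and Stard3nl, higher by 0.75 and 0.80. At 2.5 µM they were Abcg4, Gps2, Gramd1a, Gramd1b and Cyp27a1, with -0.78, -0.87, -0.60, -0.80 and -0.48, and Apoc1 and Cyp11a1, with 0.80 and 0.47. Between the doses Cyp11a1 was lower at 40 µM by a log2 change of -0.53. None passed after adjustment (limma), and differences at these levels are between values that negative controls also reach.

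**Figure D4:**
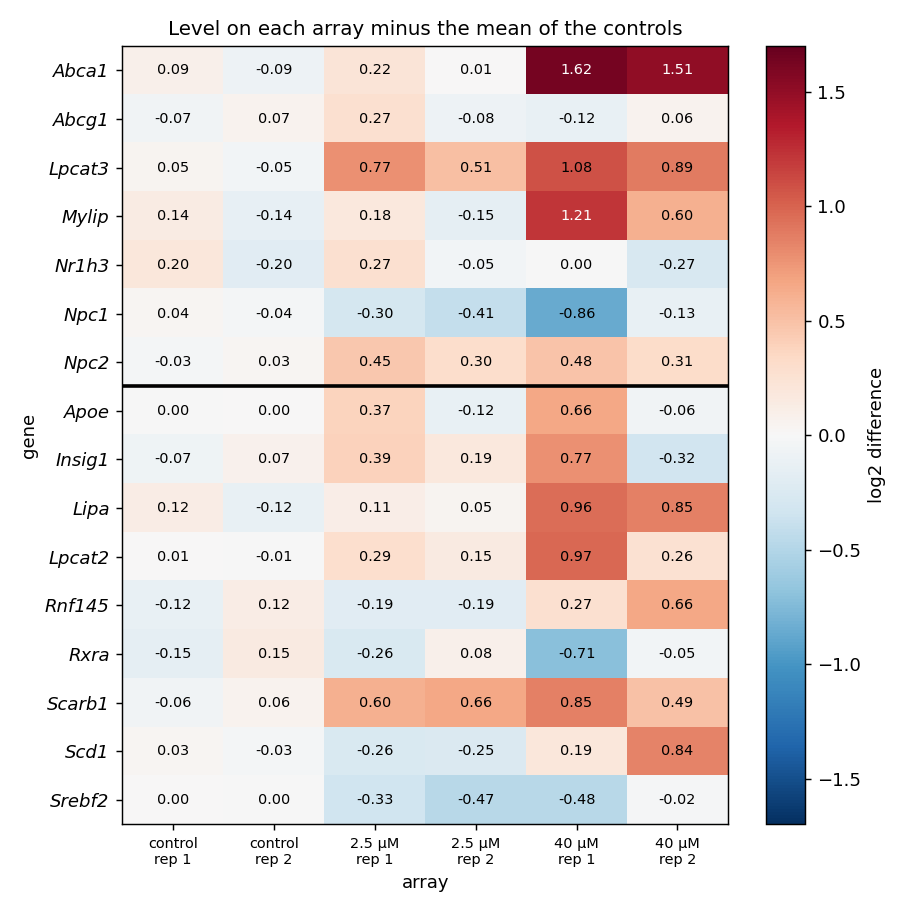
Log2 level on each array minus the mean of the 2 controls, for the 7 genes (above the line) and the named pathway genes (below it). The latter are those with a mean above the background level, except Fasn. Colour and printed number give the difference. Abca1 and Lipa are alike on both 40 µM arrays, while Mylip, Npc1, Lpcat2, Apoe, Insig1, Rxra and Scd1 differ between them.

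Outside the lists, the genes whose 6 values ran most like those of Abca1 were sought among 912 genes that had a mean above the background level and a range of at least 1. They were Pdia3 (Pearson r = 0.970 over 6 arrays), Gsr (0.970), Ephx1 (0.964), Pgd (0.961) and Ccn1 (0.945). Pdia3 is a disulfide isomerase of the endoplasmic reticulum, Gsr glutathione reductase, Ephx1 an epoxide hydrolase, Pgd an enzyme of the pentose phosphate pathway and Ccn1 a matrix protein. Pdia3, for instance, lay at 15.13 and 15.08 on the controls, 15.48 and 15.40 at 2.5 µM, and 16.45 and 16.16 at 40 µM. The 6 arrays fall into 3 groups of 2, so these values describe a shared step at 40 µM and carry no test.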

How the data were processed

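Per the labels' protocols, total RNA of B16F10 cells was made into biotinylated cRNA and hybridised to single-colour Affymetrix arrays. The authors deposited log2 values made with RMA, which corrects background, quantile-normalizes and summarises probes; the submitters' processing notes also name Affymetrix Expression Console and Transcriptome Analysis Console. Versions and genome build were not given in the sources used here. Between 259 and 269 features an array exceeded 16, the log2 limit of a 16-bit image, through a step not given, so folds are on the deposited scale. Groups follow titles and treatment labels; some description fields name other treatments.

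Of 28846 features, 19572 had exactly 1 gene symbol and were used. The other 9274, controls included, did not and were left out. For 55 genes the feature with the highest mean was kept. All 6 arrays were fitted with limma 3.58.1 (R 4.3.3) as group means with a variance trend (residual degrees of freedom 3, prior 4.11), with Benjamini-Hochberg adjustment over 19505 genes at 0.05. The script was tested on simulated data. Arrays have no read depth, and their number limits the precision.

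Genes, pathway lists and alternatives were chosen with earlier results of these data known. Named were all 7 measured genes, pathway genes with unadjusted p under 0.05, the defining genes Rxra, Apoe, Scd1, Srebf2, Lipa and Insig1, and the 5 genes most like Abca1. Promoter letters were chosen after reading the windows.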

Additional observations from a re-analysis of the deposited data

Results flagged for a closer look

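In 3 of the 19 named pathway genes, both arrays of one dose lay above, and both of the other below, the pair of controls. Only these and the 7 genes were searched, and most of the 19 were named for an unadjusted p under 0.05 (limma). Lpl, a pathway gene outside this search, had the pattern too, higher at 2.5 µM and lower at 40 µM than control. The share of all genes with this pattern was not computed. Scd1 and Rnf145 were below control at 2.5 µM and above it at 40 µM, and the doses differed by 0.77 and 0.65 on the log2 scale (limma, adjusted p = 0.854 for each). Cyp11a1, a cholesterol side-chain cleavage enzyme, went the other way, with a difference of -0.53 (limma, adjusted p = 0.854) at levels around 3, below the median of the negative controls. The difference between doses is tested by these values, and none passed with all 6 arrays. Without both low arrays, which leaves 1 array at each dose, the differences were 1.08 for Scd1, 0.85 for Rnf145 and -0.44 for Cyp11a1.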

How the results depend on the processing

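The table was recomputed under 16 alternatives, 6 of which leave out 1 array each. Of 730 values of 47 named changes, 32 changed sign and 34 newly passed (limma, adjusted p under 0.05), 24 of them without both low arrays and 10 without 40 µM replicate 2; no change passed in the fit reported. Over all genes, 3749 (40 µM), 3991 (2.5 µM) and 2965 (between doses) passed without both low arrays, 1 passed between doses with the low arrays as a block, and leaving out 1 array gave 0 to 2235 at 40 µM and 0 in the other 2 comparisons. Of the 7 genes, at unadjusted p under 0.05, leaving out 1 array gave 2 to 5 at 40 µM, 0 to 3 at 2.5 µM and 1 to 4 between doses. For 2.5 µM the count was 2 with array weights, and 3 with only the groups compared or without both low arrays. Between doses it was 1 with genes above the background level only, since Abca1 was then not tested, 4 without both low arrays, and 3 when these formed a block. Fits without both low arrays, or without 1 treated array, have doses with 1 array, whose spread is taken from the other groups.

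Signs turned as follows. At 40 µM against control Abcg1 was 0.0034 with median centring, 0.096 after quantile normalization and 0.056 without both low arrays. Apoe was -0.0023 with the low arrays as a block and -0.057 without them, and Insig1 -0.099 and -0.32. At 2.5 µM Abca1 was -0.0047 after quantile normalization. Mylip was -0.070 after it, -0.22 with the block and -0.15 without the low arrays. Nr1h3 was -0.033 and -0.046 in the last 2, and Abcg1 -0.085 without the low arrays. Between doses, Npc2 was -0.040 after quantile normalization, and without the low arrays Abcg1 was 0.14 and Npc1 0.28. Leaving out 1 array turned some signs too. At 40 µM the ranges were -0.12 to 0.056 for Abcg1, -0.33 to 0.062 for Nr1h3, -0.057 to 0.66 for Apoe, -0.14 to 0.465 for Fasn and -0.32 to 0.775 for Insig1. At 2.5 µM they were -0.085 to 0.27 for Abcg1, -0.15 to 0.18 for Mylip and -0.084 to 0.31 for Nr1h3. Between doses they were -0.30 to 0.0525 for Abcg1, -0.51 to 0.23 for Npc1 and -0.069 to 0.11 for Npc2. The cause was not tested.

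The replicate block changed none of these calls: the 7 genes gave 3, 1 and 2, and 0 genes passed over all. The labels do not pair the arrays, and the replicate deviations correlated at -0.0045 and -0.012 between control and the doses and at 0.39 between doses.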
